A study of Saccharomyces cerevisiae with 24 samples.

Results

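The mating-type and silent cassette genes of budding yeast were described from the annotation of the W303 strain that the authors built and deposited. The members were all ORF features on chromosome 3 whose gene name begins with HML, HMR or MAT followed by A or ALPHA and a digit. The rule found 7 features with 6 different names among the 5630 ORF features of the file, and 155 of those ORFs lie on chromosome 3. HMLALPHA2, HMLALPHA1, MATALPHA2, MATALPHA1 and HMRA2 were each found once, while HMRA1 was used for 2 features. No feature was named MATA1 or MATA2.

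The series holds 24 ChIP-seq libraries in 12 groups of 2 replicates, with immunoprecipitated DNA and input as separate groups. Uls1 is a chromatin remodelling enzyme of the Snf2 family. FLAG-tagged Uls1 was precipitated from W303 cells treated with 100 µM of the Top2 poison acriflavine (ACF) or left untreated. HA-tagged Top2, the type II topoisomerase, was precipitated from wild type and uls1Δ cells with or without 250 µM ACF, in each case for 2 h. All of these strains derive from a W303 strain with the markers leu2-3, leu2-112, can1-100, his3-11, his3-15, ade2-1, ura3-1 and trp1-1 and a wild type RAD5 gene (RAD5+). They also carry integrated markers that differ by strain. FLAG-ULS1 was integrated with TRP1, the HA-tagged strains carry NAT and KAN, and ULS1 was deleted with URA3. The HA-tagged Top2 was an extra copy integrated beside TOP2, and for the mating type of the ChIP strains no source used here gives an entry. No values of the libraries were analysed here, so that every value is a position or a length and carries no replicate error.

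A haploid yeast cell has the mating type of the allele at MAT, where the genes are expressed. HML and HMR, near the left and right ends of the same chromosome, carry complete copies that are kept silent by Sir proteins recruited through flanking silencers, the E and I elements, which bind Orc, Rap1 and Abf1. In strains with an active HO endonuclease the allele at MAT is cut and replaced by a copy of one of the silent cassettes. The cassettes share the flanking sequences X and Z1, and HML and MAT also W and Z2. They differ in the central Y sequence, which is Ya or Yalpha.

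The capitals in the sequences that follow mark the core recognised by HO, and the windows are shown because they span the border of Y and Z1, to which later results refer. All sequences are from the RefSeq S288C reference (R64, chromosome 3, plus strand unless stated), since the W303 sequence was not used here. The windows are chr3:13671-13718 at HML, chr3:200831-200878 at MAT and chr3:294359-294406 at HMR.
HML: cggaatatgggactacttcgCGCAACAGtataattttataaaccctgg
MAT: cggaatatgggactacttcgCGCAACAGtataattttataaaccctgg
HMR: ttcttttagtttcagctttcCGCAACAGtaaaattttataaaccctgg
The HML and MAT windows, both of the alpha type in S288C, had no difference in 48 bases. The HMR window, of the a type, differed from that of MAT at 15 of 48 bases, of which 14 lay in the 20 bases left of the core, none in the core and 1 right of it (T31A, counted from 1 at the left end of the window). The core alone, as 8 letters on either strand, occurred 238 times in the nuclear genome of S288C, so that the letters by themselves do not single out these loci.

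The HML cassette was the same in the W303 annotation as in S288C in every length and gap measured. HMLALPHA2, the silent copy of the gene for the homeodomain repressor alpha2, lay at chr3:12039-12671 of ASM216351v1 on the minus strand and was 633 bp long. HMLALPHA1, the silent copy of the gene for the coactivator alpha1 that turns on alpha-specific genes with Mcm1, lay at chr3:12935-13462 on the plus strand and was 528 bp long. The S288C genes of these names were 633 bp and 528 bp long. For both members the file's size note said that the gene has its S288C size. The divergent gap between them was 263 bp in W303 and 263 bp in S288C. The gap to YCL068C on the left was 100 bp in both annotations, and the gap to CHA1, the catabolic serine and threonine deaminase gene on the right, was 1988 bp in both. Positions of the locus and its neighbours from GEX1 on the left to KRR1 on the right all differed from those in S288C by -347 bp, W303 minus S288C.

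The MAT locus differed. It lay between BUD5, a gene for a bud-site selection exchange factor, and TAF2, a gene for a TFIID subunit, as in S288C, but held 3 members. MATALPHA2 lay at chr3:217424-217783 on the minus strand, HMRA1 at chr3:218080-218566 on the plus strand and MATALPHA1 at chr3:218596-218742 on the plus strand. MATALPHA2 was 360 bp long in W303, against 633 bp in S288C, a difference of -273 bp. MATALPHA1 was 147 bp long in W303, against 528 bp in S288C, a difference of -381 bp. Both were noted as differing in size, which held for 9.16% of the 5613 nuclear ORFs (514). MATALPHA1 was among the shortest ORFs of the file, since 42 nuclear ORFs were 147 bp long or shorter, and the median of nuclear ORFs was 1230 bp.

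The left and middle members at MAT in W303 had the lengths and the gap of the HMR genes in S288C. The feature named MATALPHA2 had 360 bp, the length of HMRA2 in S288C. HMRA1 at MAT had 487 bp, the length of HMRA1 with its introns in S288C. The gap between the left gene and HMRA1 was 296 bp at MAT in W303 and 296 bp at HMR in S288C, whereas the gap between MATALPHA2 and MATALPHA1 in S288C was 263 bp. BUD5 overlapped the left gene by 4 bp in W303 and by 4 bp in S288C. The gap from BUD5 to TAF2 was 1519 bp in W303, against 1624 bp in S288C, so that it was 105 bp shorter in W303. In S288C the stretch between the exact blocks that MAT and HMR share, which holds the Y sequence and also the HO core, was 758 bp long at MAT and 653 bp long at HMR. Their difference was also 105 bp. MATALPHA2 at MAT thus carries an alpha name and has the length of HMRA2. For the 147 bp of MATALPHA1 and its gap of 29 bp to HMRA1, S288C lists no gene at HMR to compare. The allele itself was not read, because the W303 sequence was not used here.

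**Figure D1:**
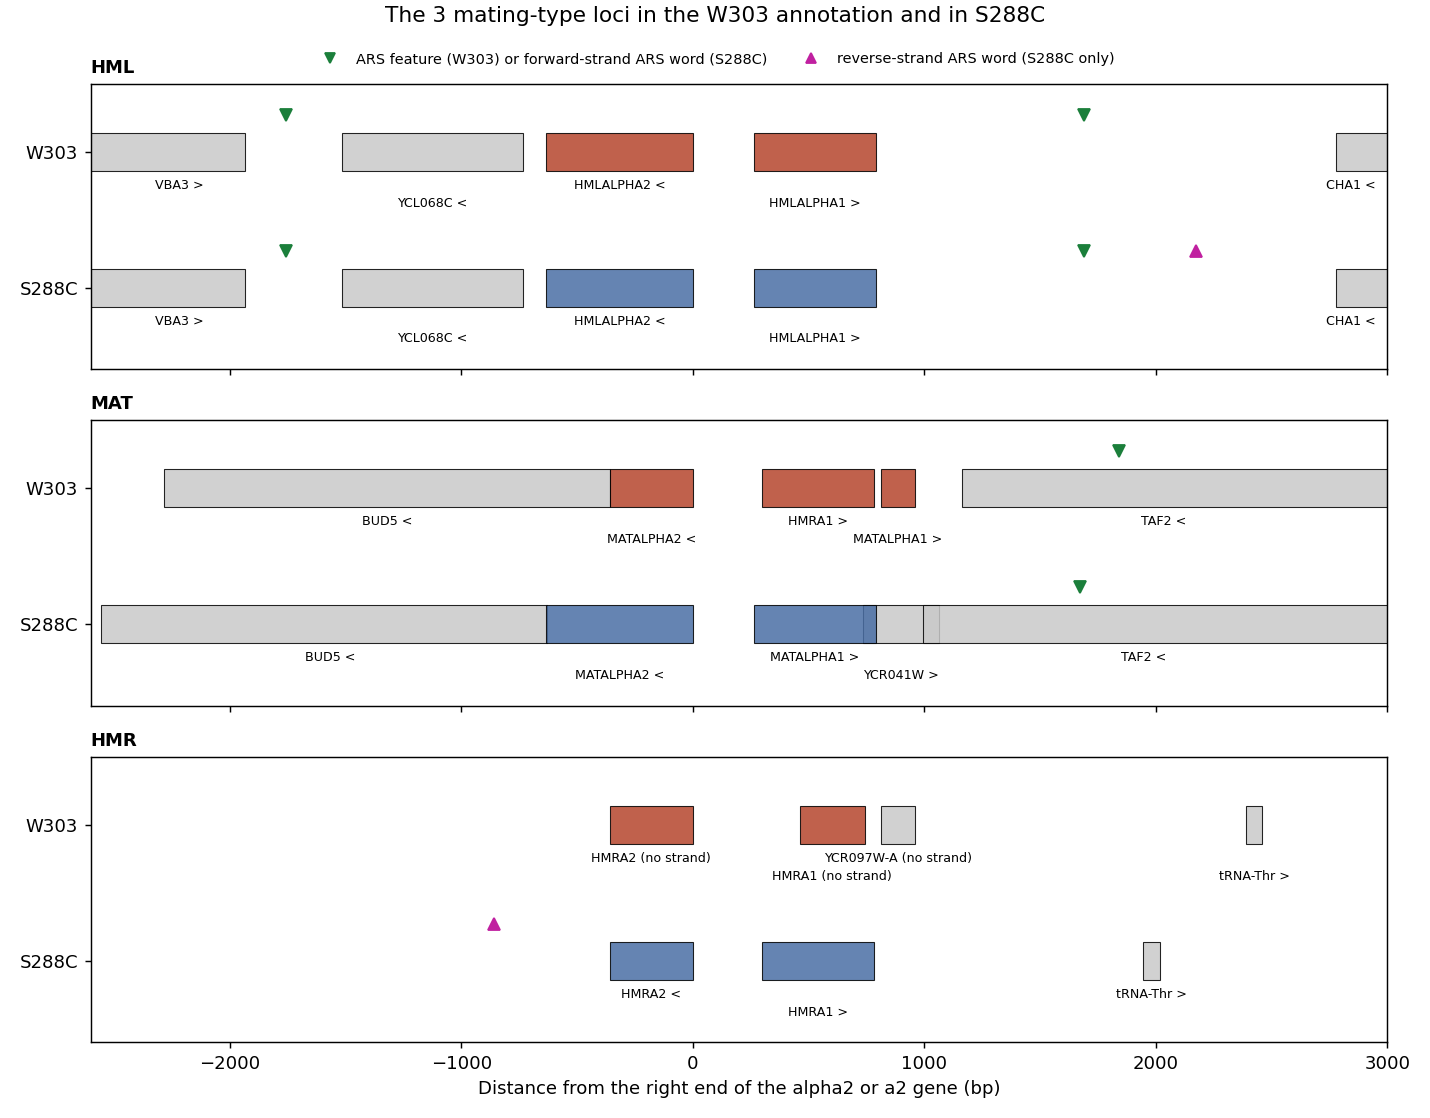
Map of the HML, MAT and HMR loci in the W303 annotation (upper row of each panel, members in red) and in S288C (lower row, members in blue), by distance in bp from the right end of the alpha2 or a2 gene. Grey boxes are other genes, > and < give the strand, and triangles mark ARS features or words. MAT in W303 shows a 360-bp left gene and a 296-bp gap, as HMR in S288C does.

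At HMR the order of the members was as in S288C, but their strand was missing and HMRA1 was shorter. HMRA2, whose product corresponds to the end of alpha2 and has no well-defined role, lay at chr3:311470-311829 and was 360 bp long in W303 and 360 bp in S288C. HMRA1, the silent copy of the gene for the homeodomain corepressor a1 that acts with alpha2 in diploids, lay at chr3:312291-312572 and was 282 bp long in W303, against 487 bp in S288C (of which 381 bp are coding). The file gave neither of them a strand, while S288C has HMRA2 on the minus and HMRA1 on the plus strand. No strand was given for 2 of the 7 members, for 2.99% of nuclear ORFs (168 of 5613) and for 5.81% of those on chromosome 3 (9 of 155). HMRA2, HMRA1, the ORF YCR097W-A and GIT1, a gene for a glycerophosphoinositol permease, formed an unbroken run of 4 ORFs without strand. Such runs numbered 74 in the nuclear genome, and 13 of them had at least 4 ORFs.

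HMRA1 at HMR was noted as the same size as in S288C although its length was 205 bp less. Among the 5 members noted as the same, this was the one whose length was not that of the S288C gene. Of all nuclear ORFs with that note and an S288C gene of the same systematic name, 55 of 5073 (1.08%) had another length. The 2 features named HMRA1 therefore differed from each other, with 487 bp at MAT and 282 bp at HMR, and names used more than once were found for 2.58% of nuclear ORFs (145 of 5613).

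The 282-bp feature matched a single reading frame in S288C. Its start lay 462 bases after the end of HMRA2, that is 165 bp later than the start of the S288C gene, and its end 40 bp earlier. At the same distance from HMRA2 in S288C, at chr3:294000-294281, the longest frame from an ATG in the unspliced gene also had 282 bp, or 94 codons with the stop. S288C HMRA1 has exons of 105, 246 and 30 bp and introns of 54 and 52 bp. Of the frame, 240 bases lay in exon 2 and 42 in intron 2. It is shown because its right end, in capitals, is intron sequence that splicing would remove.
HMRA1 frame: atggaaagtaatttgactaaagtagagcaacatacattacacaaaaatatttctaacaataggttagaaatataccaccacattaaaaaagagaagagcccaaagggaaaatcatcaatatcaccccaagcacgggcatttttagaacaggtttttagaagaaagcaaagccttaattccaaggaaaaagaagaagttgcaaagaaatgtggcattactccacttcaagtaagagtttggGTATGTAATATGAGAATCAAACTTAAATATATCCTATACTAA
The frame also lacks exon 1, with the first bases of the S288C gene, and exon 3.

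**Figure D2:**
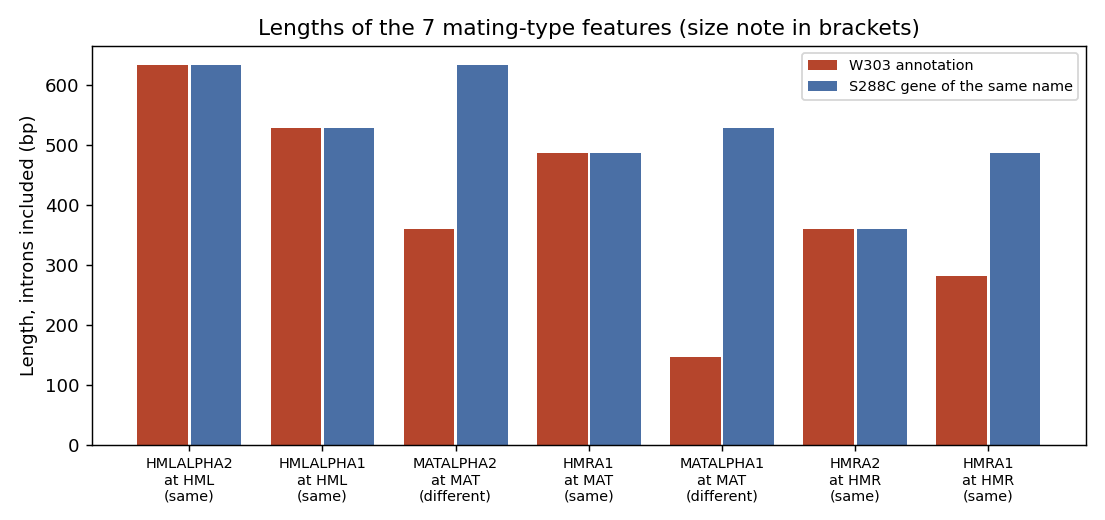
Lengths in bp, introns included, of the 7 members in the W303 annotation (red) and of the S288C genes of the same names (blue), with the file's size note in brackets. MATALPHA2, MATALPHA1 and HMRA1 at HMR were shorter in W303 (360, 147 and 282 bp), and of these HMRA1 at HMR was noted as the same.

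The 147-bp features at MAT and HMR corresponded in length and place. MATALPHA1 began 813 bases after the end of the left gene at MAT in W303, and YCR097W-A, also 147 bp long, began 813 bases after the end of HMRA2 at HMR. The S288C stretches compared were the last 147 bases of MATALPHA1 (chr3:200823-200969) and those that begin 813 bases after the end of HMRA2 (chr3:294351-294497). The MAT stretch was taken as the end of the gene and not by its distance from MATALPHA2. The stretches were identical at 125 of 147 positions. They are shown because capitals mark the 108 bases at their right end that were identical without a break, and the HO core stands just left of them.
MAT: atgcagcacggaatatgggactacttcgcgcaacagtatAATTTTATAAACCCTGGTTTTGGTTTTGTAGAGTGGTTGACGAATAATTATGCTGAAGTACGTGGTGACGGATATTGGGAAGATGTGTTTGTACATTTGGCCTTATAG
HMR: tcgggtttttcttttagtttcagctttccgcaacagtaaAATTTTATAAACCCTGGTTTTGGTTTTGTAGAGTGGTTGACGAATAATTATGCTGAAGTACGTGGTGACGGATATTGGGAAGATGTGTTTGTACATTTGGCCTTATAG
The MAT stretch of S288C began with ATG and read through 49 codons to the stop of MATALPHA1. The bases of the 147-bp feature at MAT in W303 were not read, so this need not hold for that feature. The HMR stretch began with TCG and had a stop at codon 13, the codon that holds T31A of the HO window. RefSeq lists no gene named YCR097W-A for S288C. YCR041W, which overlaps the right end of MATALPHA1 in S288C, had no feature in the W303 annotation, and neither did YCR095W-A left of HMR.

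Sequence shared between the cassettes was measured in S288C, since the reads of these libraries were 75 bases long and those that mapped to several places were removed by the authors in the standard analysis. HMLALPHA2 and MATALPHA2 were identical over 633 bases, and HMLALPHA1 and MATALPHA1 over 528. HMRA2 was identical to the last 360 bases of MATALPHA2. HML and MAT shared 4 exact blocks of 40 bases or more with 2507 bp in all, the longest of 1668 bp. HMR shared 3 blocks of 908 bp in all with MAT, and 2 blocks of 908 bp with HML.

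Every word of 75 bases was repeated in the nuclear genome of S288C in 5 of the 6 genes, namely HMLALPHA2 and MATALPHA2 (559 of 559 words each), HMLALPHA1 and MATALPHA1 (454 of 454 each) and HMRA2 (286 of 286). This was so for 1.48% of the protein genes of S288C (89 of 6001), and 7.03% had at least 1 repeated word (422). HMRA1 was the exception, with 0 of 413 words repeated. A read of this length that lies wholly within one of the 5 genes thus has more than 1 exact place in S288C, while the mate of a pair was not taken into account. In W303 the name HMRA1 stands at both MAT and HMR, and the left gene at MAT has the length of HMRA2. The S288C counts for HMRA1 and for the alpha genes thus need not hold there. Right of Y, HML and HMR share a 203-bp block in S288C (chr3:13702-13904 at HML), which holds only the right end of HMLALPHA1. The words of W303 were not counted.

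**Figure D3:**
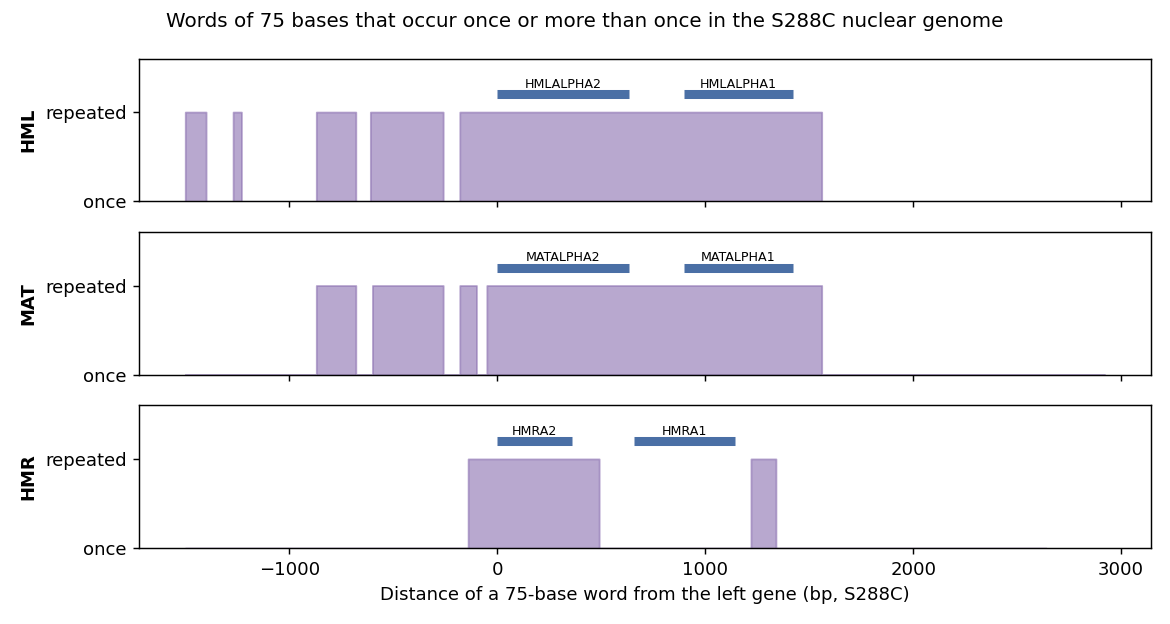
Words of 75 bases around the 3 loci of S288C, by distance in bp from the start of the left gene, that occur once (0) or more than once (filled) in the nuclear genome, with the genes as blue bars. The repeated stretches cover 5 genes in full and stop short of HMRA1, where 0 of 413 words were repeated.

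The regions between the divergent genes are shown because in S288C their lengths differ by type, with 263 bases for alpha and 296 for a. In the W303 annotation the gap at HMR was 461 bp, as HMRA1 starts later there. In S288C the a region up to chr3:293736 lies in an exact block shared with HML. At HML these bases fall within HMLALPHA2. Capitals mark matches to TATAAA or TATATA on either strand, which can overlap each other. The alpha region is chr3:13019-13281 of S288C at HML (263 bases) and the a region chr3:293539-293834 at HMR (296 bases).
alpha: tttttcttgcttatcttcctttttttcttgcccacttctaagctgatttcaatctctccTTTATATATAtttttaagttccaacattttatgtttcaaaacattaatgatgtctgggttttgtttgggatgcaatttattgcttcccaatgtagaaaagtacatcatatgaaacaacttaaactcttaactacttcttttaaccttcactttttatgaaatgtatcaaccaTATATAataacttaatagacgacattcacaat
a: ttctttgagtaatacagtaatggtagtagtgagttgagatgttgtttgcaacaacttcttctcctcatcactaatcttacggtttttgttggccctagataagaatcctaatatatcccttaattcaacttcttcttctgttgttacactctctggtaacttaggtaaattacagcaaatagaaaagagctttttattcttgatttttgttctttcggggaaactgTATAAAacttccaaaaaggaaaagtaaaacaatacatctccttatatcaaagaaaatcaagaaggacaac
The alpha region had 1 match to TATAAA and 3 to TATATA, and the a region had 1 and 0. Of 6001 windows of 263 bases upstream of S288C protein genes, 44.6% held TATAAA and 32.9% held TATATA. Of windows of 296 bases, 47.8% and 35.7% did, so that these matches are common letters and are given as a description.

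The 3 loci kept their order on a chromosome that was longer in W303. Chromosome 3 had 341087 bp in W303, against 316620 bp in S288C, a difference of 24467 bp. HMLALPHA2 lay 12038 bp from the left end in W303 and HMLALPHA1 12934 bp, against 12385 and 13281 bp in S288C. HMRA2 lay 29258 bp from the right end in W303 and HMRA1 28515 bp, against 23082 and 22299 bp in S288C. Of the 7 members, 4 thus lay within 30000 bp of an end, and 5.43% of nuclear ORFs did (305 of 5613). Among the ORFs of chromosome 3, on which all members lie by the rule, the share was 16.8%. The members at MAT were farther in, with MATALPHA2, HMRA1 and MATALPHA1 lying 123304, 122521 and 122345 bp from the right end.

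Distances to the centromere differed most on the right arm. CEN3 was 117 bp long in both annotations and lay at chr3:114478-114594 in W303 and chr3:114385-114501 in S288C. HML was 101015 bp from CEN3 in W303, against 100575 bp in S288C, a difference of 440 bp. MAT was 102829 bp from CEN3, against 85044 bp, a difference of 17785 bp. HMR was 196875 bp from CEN3, against 178677 bp, a difference of 18198 bp. In W303 HML and MAT were thus at nearly equal distances from the centromere, and in S288C they were not.

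The 17785 bp between CEN3 and MAT came in 2 steps. The shift between the annotations was 93 bp up to SRD1 and 6706 bp from MAK32, a step of 6613 bp. It was 17878 bp from FEN2, the gene after RHB1, a step of 11172 bp. Each of the 2 intervals held 2 of the file's Ty retrotransposon features, and the steps added up to 17785 bp. From SYP1 to BUD5, 9 genes left of MAT shared the shift of 17878 bp.

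**Figure D4:**
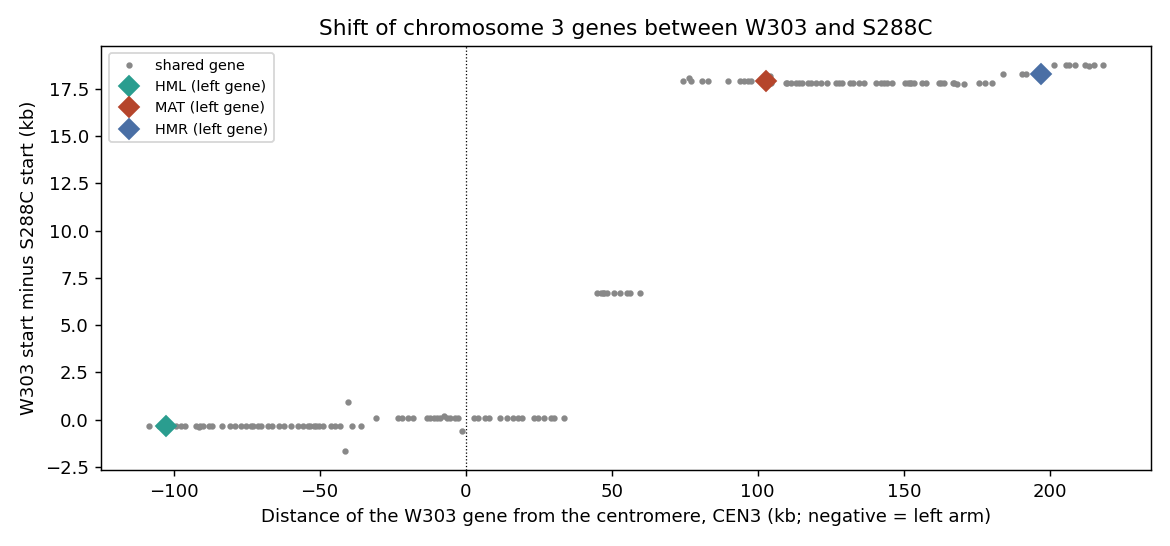
Start in W303 minus start in S288C, in kb, for 150 genes of chromosome 3 with the same systematic name (grey), against the distance of the W303 gene from CEN3 in kb, negative on the left arm. Diamonds mark the left gene of HML, MAT and HMR. The shift steps up by 6613 bp and 11172 bp between CEN3 and MAT.

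The loci were also farther apart. HML and MAT were separated by 203961 bp in W303, against 185736 bp in S288C. MAT and HMR were separated by 92727 bp in W303, against 92209 bp in S288C. HML and HMR, which both serve as donors of sequence to MAT, were separated by 298007 bp in W303, against 279369 bp in S288C. The recombination enhancer, which favours HML as the donor in a cells, is a listed region of S288C at chr3:29108-29809, 15298 bp right of HML. KAR4, a transcription factor gene next to it, lay 14120 bp right of HML in W303 and 14119 bp in S288C.

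The right side of HMR was longer in W303. OCA4, the nearest ORF on the left in the W303 annotation, was 3917 bp from HMRA2 in W303, against 3920 bp in S288C. HMRA2 and the threonine tRNA gene to the right, a boundary that keeps silencing from spreading, were separated by 2387 bp in W303, against 1945 bp in S288C, which is 442 bp more. The 282-bp frame stood at the same distance from HMRA2 in both, so the added bases lay right of it. In S288C this gap held 1 long terminal repeat (chr3:295003-295330, 328 bp). The gap from the tRNA gene to GIT1 was 1492 bp in both. The tRNA gene itself lay at chr3:314217-314289 in W303 with 73 bp. A tRNA feature was within 3000 bp of both HMR members and of no other member. The file lists tRNA features only on chromosomes 1 to 7. Of the ORFs there, 13.7% had such a feature within 3000 bp (306 of 2237).

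Matches to 8 words of the ARS consensus, the sequence to which Orc binds at origins and silencers, are listed in the W303 file. They stand near HML and MAT, and none is listed near HMR. The authors' search was limited to these 8 words, so a missing feature does not show that the consensus is absent. In the file 3 ARS features lay within 3000 bp of a member. One, with the word TTTTATGTTTT, lay at chr3:10910-10921, which is 1117 bp left of HMLALPHA2 and 2013 bp left of HMLALPHA1. Another, TTTTATATTTT, lay at chr3:14354-14365, 891 bp right of HMLALPHA1 and 1682 bp right of HMLALPHA2. The third, again TTTTATATTTT, lay at chr3:219619-219630 inside TAF2, which is 876 bp right of MATALPHA1, 1052 bp right of HMRA1 and 1835 bp right of MATALPHA2. The words have 11 letters and the features 12 bases. The nearest ARS feature was 22720 bp from HMRA2 and 21977 bp from HMRA1 at HMR. Of the 7 members, 5 had an ARS feature within 3000 bp, and 15.1% of nuclear ORFs did (845 of 5613). The median distance over nuclear ORFs was 15202 bp.

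**Figure D5:**
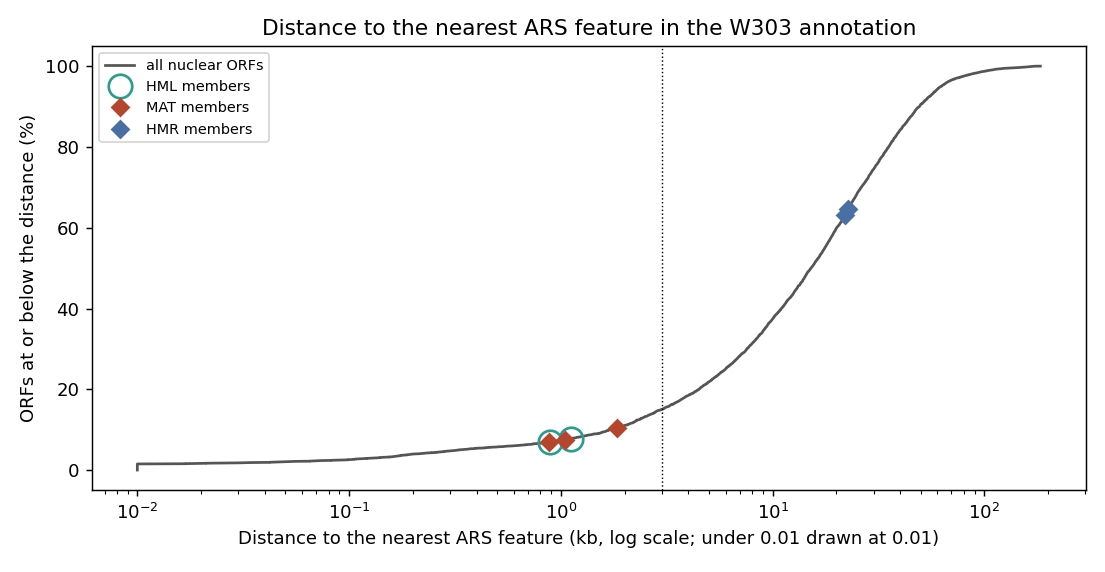
Share of the 5613 nuclear ORFs in the W303 annotation, in percent, whose nearest ARS feature is at or below a distance in kb (log scale), with the members of HML (open circles), MAT and HMR (diamonds) on the curve. The 5 members at HML and MAT lie left of the dotted line at 3000 bp, and the 2 at HMR lie right of the median of 15202 bp.

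The same words were searched on both strands of S288C, and 5 matches lay within 3000 bp of a locus. They are shown in the 5′ to 3′ direction of the word, in capitals, with 20 bases on each side.
HML, ARS301 (chr3:11237-11287): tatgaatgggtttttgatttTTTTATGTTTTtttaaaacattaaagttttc
HML, ARS302 (chr3:14681-14731): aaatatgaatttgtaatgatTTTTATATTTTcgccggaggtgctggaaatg
HML, ARS303 (chr3:15166-15216, minus strand): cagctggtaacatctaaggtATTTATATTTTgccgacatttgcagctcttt
MAT, in TAF2 (chr3:201826-201876): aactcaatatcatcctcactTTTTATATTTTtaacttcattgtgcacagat
HMR, ARS317 (chr3:292654-292704, minus strand): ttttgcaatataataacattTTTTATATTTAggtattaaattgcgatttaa
The first 2 lay in ARS301 and ARS302, the origins at the E and I silencers of HML, and the last in ARS317, the 57-bp origin at the E silencer of HMR, 494 bp from HMRA2. The match in TAF2 lay in no origin listed for S288C. The 3 matches on the plus strand had an ARS feature in W303 at the same distance from the nearest gene of the same name. The 2 matches on the minus strand, in ARS303 and ARS317, had none.

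This split by strand held in the whole nuclear genome. Of the matches in S288C, 252 of 280 on the plus strand and 0 of 274 on the minus strand had a W303 feature at exactly the same distance from a flanking gene. The W303 annotation held 277 nuclear ARS features. The absence of an ARS feature at HMR in W303 stands beside these counts by strand, and whether the W303 sequence carries the word of ARS317 was not tested. ARS318 at the I silencer of HMR (82 bp, 498 bp from HMRA1) held none of the 8 words on either strand. The same was true of ARS320 right of HML and ARS314 left of MAT. Only these words were looked for, so their absence does not show that the origins lack the consensus.

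Genes that act on or through the cassettes were taken from 6 lists with 47 genes, and all 47 had a feature in the W303 annotation. Of these, 42 had the length of the S288C gene, and the same 42 were noted as the same size. Among 15 silencing factors, 13 had the S288C length. The exceptions were SIR1, which binds Orc at the silencers and had 2037 bp in W303, against 1965 bp in S288C, and SUM1, a repressor of middle meiotic genes, with 1629 bp in W303, against 3189 bp in S288C. SIR2, SIR3 and SIR4, the core of silent chromatin, had the S288C length. Among 10 genes for switching and recombination, 8 had the S288C length. The exceptions were RAD52, a mediator of homologous recombination that had 1515 bp in W303, against 1416 bp in S288C, and RDH54, a Snf2 family translocase with 2775 bp, against 2877 bp.

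The targets of the mating-type regulators were nearly all of the S288C length. Of 7 a-specific genes, which alpha2 represses, 6 had the same length. ASG7, a regulator of pheromone signalling, was the exception with 645 bp in W303, against 630 bp in S288C. The 4 alpha-specific genes, which alpha1 activates, the 8 haploid-specific genes, which a1 and alpha2 repress together in diploids, and the 3 co-regulators TUP1, CYC8 and STE12 had the S288C length. MCM1, the partner of both alpha proteins, was among the 8 of its list with the S288C length.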

How the data were processed

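The deposited file is the authors' annotation of W303 (assembly ASM216351v1), whose values are positions in bases, 1-based, and not a score or count. The assembly is a W303 genome published by Matheson et al., which the paper does not describe as that of the ChIP strains. Values given here for W303 are those of this annotation. According to the methods, the authors took ORFs from the Yeast Genome Annotation Pipeline, added ORFs by BLASTn, noted whether sizes differ from S288C, and searched words of the ARS consensus with Biopython. No source used here states their versions. For the libraries, which were not analysed here, the notes of the submitters list the build R64 and BWA, SAMtools, deepTools, MACS2, bedtools and ChIPseeker. The paper, however, gives W303 as the genome to which the reads were mapped. Since no library entered the values, depth has no bearing on them.

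Members, gene lists and windows were chosen with earlier results of these data known. Named genes were taken from the members, the 3 nearest ORFs or tRNA genes on each side of a locus, known flanking genes and list genes that differ in length. Of the switching list, 1 gene is not reported here and is left out of the counts. Genes at the ends of the shifts, YCR097W-A and YCR095W-A were named after their values were seen. Distances are the bases between feature edges. Genes were matched to S288C R64 (RefSeq) by systematic name, and positions stayed in the coordinates of their own build. Repeated words were found on both strands over the 16 nuclear chromosomes of S288C, and the search recovered 20 of 20 planted repeats in simulated sequence. No test was run, as positions in 1 annotation have no replicates. Scripts ran under matplotlib 3.10.9, scipy 1.17.1, numpy 2.4.6 and python 3.11.15. The alternatives tried changed windows, edges, word lengths and the ORFs counted.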

Additional observations from a re-analysis of the deposited data

How the results depend on the processing

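All values are positions in 1 annotation, so their error cannot be measured, and the W303 bases behind them were not read. Between midpoints instead of edges, HML and MAT were 205332.5 bp apart and MAT and HMR 93938.0 bp. Distances of members to CEN3 grew by 132 to 375 bp with midpoints, and distances to the right end were 685 bp shorter from the last annotated base, which left 4 members within 30000 bp of an end. Within 1000 bp and 5000 bp, 2 and 3 ARS features lay near a member, against 3 within 3000 bp. S288C words on both strands gave 5 matches, and those on the plus strand gave 3. On chromosome 3 alone, 18.1% of ORFs had an ARS feature within 3000 bp, 16.8% lay within 30000 bp of an end and 5.81% had no strand. Among ORFs whose name was used once, 8.16% were noted as differing in size. With words of 50 and 150 bases the share of S288C genes with every word repeated was 1.58% and 1.28%. The alternatives on missing strands, on word length and on the plus strand alone were chosen after seeing the data. A length from exon or coding parts could not be computed, as the file lists none for the members. No paired analysis was possible because no library value was compared.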
